A study of Mus musculus with 2 samples.

Results

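The genes described here are 39 mouse genes of the ephrin, Slit and netrin guidance systems, chosen by name: 16 that encode ligands and 23 that encode receptors. Of these, 38 have a row among the 19720 genes of the deposited table, and 37 reached 20 reads when both libraries are added, which is called measured below. Ntn3, which encodes netrin-3, had no row matched by its identifier and was not analysed here. Epha1 did not reach this minimum, with 4 control reads and 1 knockout read. The members, the other gene lists and the limits used below were chosen with earlier results of these data known. Shares set beside those of all measured genes are therefore descriptive only. RNA sequencing was done on telencephalic tissue of C57BL/6 mouse embryos, and the protocol names cerebral cortex. The control carries floxed alleles of the histone variant gene H2A.Z (H2AZfl/fl), and the other genotype is a conditional knockout of that gene (H2AZcKO). The titles give embryonic day 16 and the stage field gives embryonic day 12 for each sample. The labels name neither the Cre driver nor the cells it acts in, and they do not say whether embryos were pooled.

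Triplicates are mentioned in the design text, yet each genotype has 1 count column. Each difference below is therefore between 1 knockout library and 1 control library, with no replicate check and no test between genotypes. The control library holds 8474545 reads in listed genes and the knockout library 9028523. The knocked-out gene, H2afz, was 2.24-fold lower (2.02 to 2.49), from 1152 control reads to 535 knockout reads. Where a pair of read numbers is given below, the control comes first and the knockout second. Intervals in parentheses are exact 95% Clopper-Pearson intervals on how a gene's reads divide between the libraries, and they cover counting error only. A gene is called beyond counting error where that interval leaves out a ratio of 1. Log2 ratios, given after the reads with their interval, are knockout over control after scaling of the libraries by the TMM method. In bulk tissue, fewer cells of a type and less RNA per cell cannot be told apart.

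Several lists of markers of tissues other than the dorsal cortex differed between the libraries. Summed markers of the diencephalon, midbrain and hindbrain went from 68.8 CPM (reads scaled to library size) in the control to 194.5 in the knockout. Of 8 measured genes, 6 were at least 1.5-fold higher, among them Shox2 with 0 and 85 reads. Sox14 with 0 and 19 reads and En1 with 0 and 5 did not reach the read minimum. Ventral telencephalic markers summed to 834 and 1250.1 CPM, with 8 of 15 higher. Choroid plexus markers summed to 790 and 12.2 CPM, with 8 of 8 measured genes lower, among them Calml4 with 26 and 0 reads. Kcnj13, with 11 and 0 reads, did not reach the read minimum. Meningeal markers summed to 416 and 66.8 CPM, with 11 of 12 lower. Endothelial markers summed to 227 and 194.7 CPM, with 2 of 10 lower and Slco1a4 at 0 reads in the knockout. Pericyte markers summed to 261 and 245 CPM, with 2 of 8 lower by that limit and 0 higher. Beyond counting error, whatever the size, 4 of the 8 were lower and 2 higher, beside 9.3% and 12.5% of all measured genes. Markers of microglia and macrophages summed to 56.1 and 40.5 CPM, with 3 of 7 lower. The 1.5-fold limit was passed by 3.52% of all 14366 measured genes on the higher side and by 5.43% on the lower side. Dorsal cortical markers summed to 3562 and 3450 CPM, a log2 ratio of -0.05 (-0.07 to -0.02), with 0 of 12 at least 1.5-fold apart. Whatever the size, 6 of these 12 were lower and 2 higher beyond counting error, at a median of 3653.5 reads over both libraries. The part of these shifts in the results below was not tested.

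Guidance molecules steer growing axons and migrating neurons by attraction, repulsion and adhesion. Ephrins are membrane-bound ligands of the Eph receptor tyrosine kinases: A-class ephrins are held by a lipid anchor, B-class ephrins span the membrane, and both can also signal back into the cell that carries them. Slits are secreted proteins that mostly repel axons through Robo receptors. Netrins are laminin-related proteins that attract axons through Dcc and repel them through Unc5 receptors, and netrin-G proteins are lipid-anchored relatives that bind synaptic adhesion partners in place of Dcc. In the developing forebrain these systems guide corticofugal, thalamocortical and commissural axons and the migration of interneurons.

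Most of these genes were close to level between the libraries, and the members furthest apart were higher in the knockout library. A ratio under 1.5 either way was found for 33 of the 37, a share like that of all measured genes (13080 of 14366). The exceptions were Ntng1, Epha10, Epha8 and Ntn1, all higher in the knockout, so that 4 of 37 (10.8%) were at least 1.5-fold higher, beside 3.52% of the 14366 measured genes. None was at least 1.5-fold lower (0 of 37), beside 5.43%. With the further demand of a difference beyond counting error, 3 members remained on the higher side (8.11%, beside 2.02%) and 0 on the lower side (beside 3.2%). The member just inside the limit was Ntn1 at 1.56-fold, and the nearest outside it was Efna5 at 1.45-fold. The median log2 ratio of the measured members was 0.05, with quartiles of -0.05 and 0.25, beside 0.00 with quartiles of -0.14 and 0.12 for all measured genes. Ignoring size, 10 members (27.0%) were higher and 3 (8.11%) lower beyond counting error, beside 12.5% and 9.3% of measured genes. These members had a median of 835 reads over both libraries, against 505 for all measured genes, and more reads let a smaller ratio pass.

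**Figure D1:**
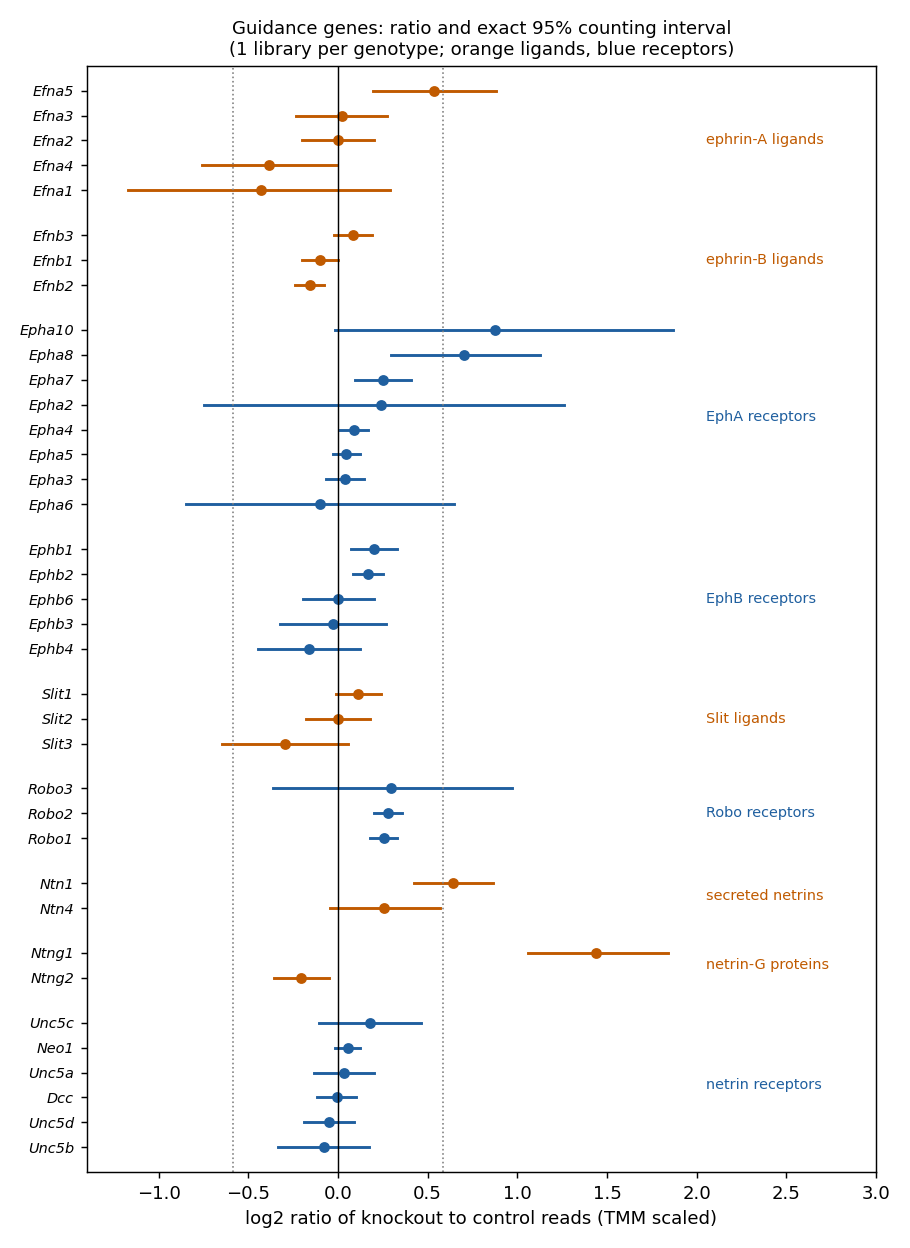
Log2 ratio of knockout to control reads (horizontal axis, TMM scaled) for the 37 measured guidance genes, grouped by class, with ligands in orange and receptors in blue; points are ratios, bars are exact 95% counting intervals, dotted lines mark 1.5-fold, and there is 1 library per genotype. Ntng1 at 1.44 stands apart on the right, and no gene lies beyond the left dotted line.

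Ligand and receptor genes can be set side by side. The 15 measured ligands had a median log2 ratio of -0.0010, with 7 above 0 and 8 below, and this median turned to 0.022 under DESeq2 size factors and to 0.0102 with a minimum of 100 reads. The 22 measured receptors had a median of 0.07, with 16 above 0 and 6 below, and their median was above 0 under every scaling tried. Ligands ran from -0.43 (Efna1) to 1.44 (Ntng1), and receptors from -0.16 (Ephb4) to 0.88 (Epha10). With the netrin-G genes left out, the highest ligand was Ntn1 at 0.64. The intervals of Efna1, Ephb4 and Epha10 hold level. Beyond counting error, 3 of the 15 ligands were higher and 3 lower, whereas 7 of the 22 receptors were higher and 0 lower. Of all measured genes, 12.5% were higher and 9.3% lower in this way. The median gene had 729 reads over both libraries among ligands and 1249 among receptors, and more reads let a smaller ratio pass. Added together, ligand reads numbered 9604 and 9972, a log2 ratio of -0.0023 (-0.04 to 0.04), and receptor reads 22693 and 25628, a log2 ratio of 0.12 (0.09 to 0.14). Reads of all measured genes together stood at 0.035 on the same scale. The difference between the roles was not tested, since members are not replicates of a genotype.

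**Figure D2:**
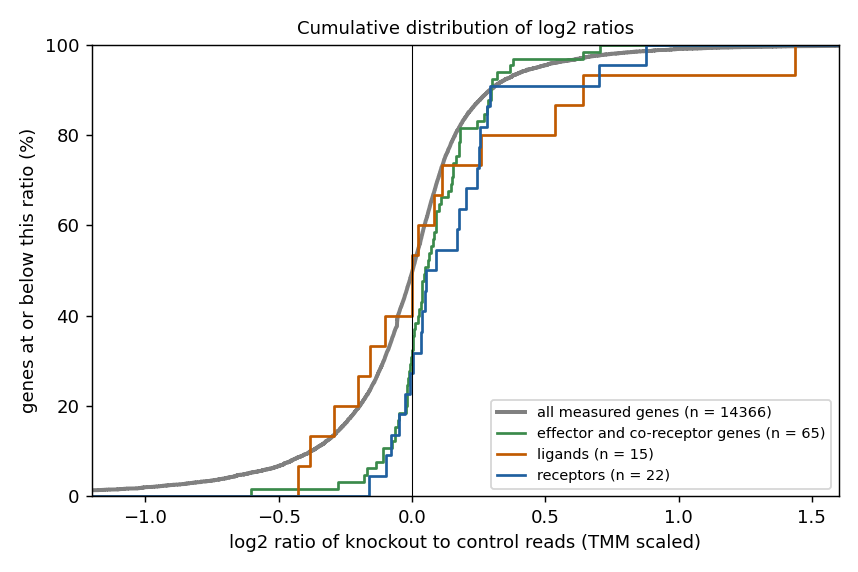
Cumulative share of genes (vertical axis, percent) at or below each log2 ratio of knockout to control (horizontal axis, TMM scaled) for all 14366 measured genes, 65 effector and co-receptor genes, 15 ligands and 22 receptors. The receptor curve starts at -0.16, to the right of the curve of all genes, while the ligand curve crosses it near 0 and reaches out to 1.44.

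Upstream sequences are shown for 4 members that were higher beyond counting error, because H2A.Z is a nucleosome component known from promoters; neither H2A.Z binding nor DNA methylation was measured in these data. The windows are the 250 bases before the RefSeq transcription start (GRCm38.p6, 5′ to 3′ on the strand of the gene), with every CG dinucleotide in capitals. Of 5 such windows that touch the start of the table's gene model and hold no annotated exon, those of the 4 highest ratios are printed: Epha8 at chr4:136956817-136957066 (minus strand), Efna5 at chr17:62881318-62881567 (minus), Robo2 at chr16:74411826-74412075 (minus) and Robo1 at chr16:72662899-72663148 (plus).
Epha8: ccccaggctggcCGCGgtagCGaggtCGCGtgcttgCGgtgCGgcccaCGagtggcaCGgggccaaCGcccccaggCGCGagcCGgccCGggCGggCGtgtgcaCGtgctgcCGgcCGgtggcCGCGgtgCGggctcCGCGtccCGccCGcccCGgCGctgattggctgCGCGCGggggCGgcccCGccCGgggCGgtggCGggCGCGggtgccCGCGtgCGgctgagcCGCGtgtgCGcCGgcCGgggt
Efna5: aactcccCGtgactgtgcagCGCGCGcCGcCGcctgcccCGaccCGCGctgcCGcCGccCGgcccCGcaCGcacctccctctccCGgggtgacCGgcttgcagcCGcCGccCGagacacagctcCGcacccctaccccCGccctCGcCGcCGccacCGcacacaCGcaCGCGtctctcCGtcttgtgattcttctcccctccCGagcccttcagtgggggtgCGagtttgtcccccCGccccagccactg
Robo2: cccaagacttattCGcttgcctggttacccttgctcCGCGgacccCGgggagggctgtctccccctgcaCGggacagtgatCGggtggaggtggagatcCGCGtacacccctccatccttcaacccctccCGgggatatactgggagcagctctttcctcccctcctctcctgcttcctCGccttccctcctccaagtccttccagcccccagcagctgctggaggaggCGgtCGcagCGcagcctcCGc
Robo1: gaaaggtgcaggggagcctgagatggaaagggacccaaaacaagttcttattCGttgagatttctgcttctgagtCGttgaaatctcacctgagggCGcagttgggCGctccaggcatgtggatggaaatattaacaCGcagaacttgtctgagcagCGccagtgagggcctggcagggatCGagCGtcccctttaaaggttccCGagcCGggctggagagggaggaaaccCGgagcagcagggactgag

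The windows differ widely in CG content although all 4 genes were higher in the knockout library. The Epha8 window holds 46 CG dinucleotides, a number reached by 0.323% of the 32851 RefSeq windows of the same length, and its bases are 84.0% G or C. The Efna5 window holds 32, reached by 4.58% of windows. The printed windows of Robo2 and Robo1 hold 14 and 11, reached by 29.4% and 35.6%. Other RefSeq windows of Robo2, further upstream and not printed, hold 4 and 8. Ntng1, of higher ratio than the 4 genes shown, is not printed. Its window holds 25 and does not touch the start of the table's gene model. No window was found for Ntn1. RefSeq windows were found for 34 of the 39 members, 39 windows in all. Of these, 33 (84.6%) hold at least 10 CG dinucleotides, beside 37.8% of all windows. All windows together cover 27025 genes, measured here or not, and no share is given for measured genes alone. The member windows include those of level and lower genes: the window of the level gene Neo1 holds 45, and that of Efna4, lower in the knockout library, holds 7.

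Among the ephrin-A ligands the members moved in different directions. Efna5, which encodes ephrin-A5, a repellent of topographic maps, had 122 and 184 reads, 0.53 (0.20 to 0.88). Efna4 (ephrin-A4) had 138 and 110 reads, -0.38 (-0.76 to -0.012), just beyond counting error on the lower side. Efna1, which encodes an ephrin also made by blood vessels, had 39 and 30 reads, and its ratio of -0.43 (-1.17 to 0.29) was not distinguishable from level at this depth. The genes of highest level in this class did not share in these differences: Efna2 had 408 and 424 reads, -0.0010 (-0.20 to 0.20), and Efna3 had 252 and 266 reads, 0.02 (-0.23 to 0.28). Efna1, Efna3 and Efna4 lie in a row on chromosome 3, from 89271733 to 89338028, and Efna5 lies on chromosome 17 from 62604184 to 62881317. Neighbours on chromosome 3 therefore had both level and lower values. In the summed class, gains and losses cancelled: 959 and 1014 reads, 0.02 (-0.10 to 0.15), a value that was -0.0109 with scaling by library total.

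The ephrin-B genes were the most strongly expressed ligands per exon length and were nearly level. Efnb1, which encodes ephrin-B1, had 1589 and 1541 reads, -0.10 (-0.20 to 0.0012). Efnb2, whose protein marks arterial vessels and is also found in neural progenitors, had 2723 and 2538 reads, -0.16 (-0.24 to -0.08). Efnb3, a midline repellent of corticospinal axons, had 1429 and 1575 reads, 0.08 (-0.02 to 0.19). Of the 3, Efnb2 alone was beyond counting error, 1.12-fold lower. The summed class was at -0.08 (-0.13 to -0.03).

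Of the EphA receptor genes, the 3 of highest level differed little between the libraries, and the ratios past 1.5-fold belonged to genes of low level. Epha4, whose receptor binds ephrins of both classes, had 2486 and 2749 reads, 0.09 (0.0098 to 0.17). Epha5 and Epha3, receptors of topographic mapping, had 2683 and 2883 reads, 0.05 (-0.03 to 0.12), and 1422 and 1518 reads, 0.04 (-0.07 to 0.14). These 3 genes made up most of the EphA level in either library. Epha7, a receptor with graded expression across the cortex, had 599 and 741 reads, 1.19-fold higher, or 0.25 (0.09 to 0.41). Epha8, known for its expression in the midbrain, had 79 and 134 reads, 1.63-fold higher, or 0.70 (0.29 to 1.13). Epha10, whose receptor lacks kinase activity, had 16 and 31 reads, a ratio of 1.84 whose interval in log2 units, -0.017 to 1.87, touched level. Of this pair, Epha8 alone was past 1.5-fold and also beyond counting error. Epha6 with 33 and 32 reads and Epha2 with 17 and 21 had intervals wider than 1 log2 unit and showed no detectable difference. Epha8 lies on chromosome 4 from 136929419 to 136956816, close to Ephb2 at 136647539 to 136835988.

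EphB receptor genes showed small ratios. Ephb2, a receptor of commissural axons and synapses, had 2125 and 2481 reads, 0.17 (0.08 to 0.25), or 1.12-fold higher. Ephb1, which steers axons at the optic chiasm, had 908 and 1086 reads, 0.20 (0.07 to 0.33), or 1.15-fold higher. Both lay beyond counting error, and both stayed so under the other scalings. Ephb6, which lacks kinase activity, had 409 and 426 reads, 0.0022 (-0.20 to 0.20). Ephb3 had 192 and 196 reads, -0.03 (-0.32 to 0.27), and Ephb4, the receptor of venous endothelium, had 216 and 201 reads, -0.16 (-0.44 to 0.12). The intervals of these 3 genes hold level. Endothelial markers summed to a log2 ratio of -0.22 (-0.31 to -0.12). Of these 10 genes, 5 were lower beyond counting error, beside 9.3% of all measured genes, and the intervals of the other 5 hold level.

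Robo1 and Robo2 were higher in the knockout library, whereas Robo3 and the 3 Slit genes were not beyond counting error. Robo1 had 2498 and 3101 reads, 0.26 (0.18 to 0.33), and Robo2 had 2374 and 3001 reads, 0.28 (0.20 to 0.36). These receptors of Slit were thus 1.19-fold and 1.22-fold higher, and their intervals overlapped. They are neighbours on chromosome 16, Robo1 from 72663149 to 73046095 and Robo2 from 73892306 to 74411825. Robo3, which acts in commissural axons and binds Slit weakly, had 36 and 46 reads, 0.29 (-0.36 to 0.97), so that a ratio like that of Robo1 was not detectable at its depth. Slit1, the main Slit of this tissue by level, had 979 and 1102 reads, 0.11 (-0.01 to 0.24). Slit2 had 512 and 532 reads, -0.0012 (-0.18 to 0.18), and Slit3, also made outside the nervous system, had 151 and 128 reads, -0.29 (-0.65 to 0.05). All 3 Slit intervals hold level, although Slit1 was higher beyond counting error under DESeq2 size factors. Summed, Robo reads were at 0.27 (0.21 to 0.32) and Slit reads at 0.05 (-0.05 to 0.14); the difference between these classes was not tested.

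The netrin-G genes held the member furthest apart, and its paralog did not share the difference. Ntng1, on chromosome 3 from 109780040 to 110144011, encodes netrin-G1, known from thalamocortical axons. Its 76 control reads stand against 215 knockout reads, 2.71-fold higher (2.08 to 3.58). Ntng2, which encodes netrin-G2 of cortical neurons, had 745 and 673 reads, 1.15-fold lower, or -0.20 in log2 units (-0.36 to -0.05). The intervals of the 2 paralogs do not overlap. Per exon length Ntng1 made up 4.71% of the summed netrin-G level of the control and 13.4% of that of the knockout. Of the 8 measured markers of the diencephalon, midbrain and hindbrain, 6 were higher as well. Tcf7l2, with 111 and 1017 reads, supplied most of the reads gained by that list, whereas Lhx9 with 363 and 377 reads and Barhl2 with 89 and 92 reads were level. The part of these markers in the Ntng1 value was not tested. Ntng1 was also the single member that the authors' deposited table marks as significant (1 of 38, or 2.63%, beside 1.61% of all listed genes). Its deposited fold, control over knockout, is 0.377. This mark does not follow the deposited adjusted p-values alone. Robo1, Robo2, Ntn1 and Efnb2 lack it and are not thereby level.

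Of the secreted netrin genes Ntn1 was higher, and the intervals of the netrin receptors hold level. Ntn1, which encodes netrin-1 of the ventral midline and ventral telencephalon, had 278 and 451 reads, 1.56-fold higher or 0.64 in log2 units (0.42 to 0.86). Ventral telencephalic markers moved with it, at 0.58 (0.54 to 0.63) when summed, and their part in the Ntn1 value was not tested. Ntn4, a netrin of basement membranes, had 163 and 203 reads, 0.26 (-0.04 to 0.57), which holds level. The receptors of highest level showed no such difference. Dcc, the attractive netrin receptor, had 1387 and 1435 reads, -0.0074 (-0.11 to 0.10). Neo1, which encodes neogenin, a receptor of netrins and of RGM proteins, had 3353 and 3619 reads, 0.05 (-0.01 to 0.12).

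Members of the Unc5 family, the repulsive netrin receptors, were level in the same way. Unc5a had 561 and 597 reads, 0.03 (-0.14 to 0.20), and Unc5b, also a receptor of endothelium, had 260 and 256 reads, -0.08 (-0.33 to 0.18). Unc5c had 193 and 227 reads, 0.18 (-0.11 to 0.46). Unc5d, a gene of migrating upper-layer neurons, had 842 and 846 reads, -0.05 (-0.19 to 0.09). None of the 6 netrin receptors was beyond counting error, although Neo1 was higher beyond it under DESeq2 size factors. Netrin receptor reads together were at 0.03 (-0.02 to 0.07), and at -0.0097 with scaling by library total, whereas secreted netrin reads were at 0.51 (0.34 to 0.69).

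Levels per exon length, as CPM per kilobase of annotated exon (RPKM), place these differences. In the control library the highest ligands were Efnb1 at 53.7, Efnb3 at 52.3 and Efnb2 at 46.3 RPKM, and the highest receptors Neo1 at 44.8, Epha4 at 35.99 and Ephb2 at 19.6 RPKM. In the knockout library Efnb3, at 55.5 RPKM, stood above Efnb1, at 50.04 RPKM, and the first 3 receptors kept their order. The members at least 1.5-fold apart stood at place 23 or below in the order of the 38 members in the control library: Ntng1 went from 1.07 to 2.92 RPKM, Epha8 from 1.95 to 3.19, Ntn1 from 5.16 to 8.05 and Epha10 from 0.259 to 0.482. In the order of all 38 members, 27 moved by at most 1 place, and the largest move, by 6 places, was that of Ntng2, from place 7 to place 13, among genes of similar level.

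**Figure D3:**
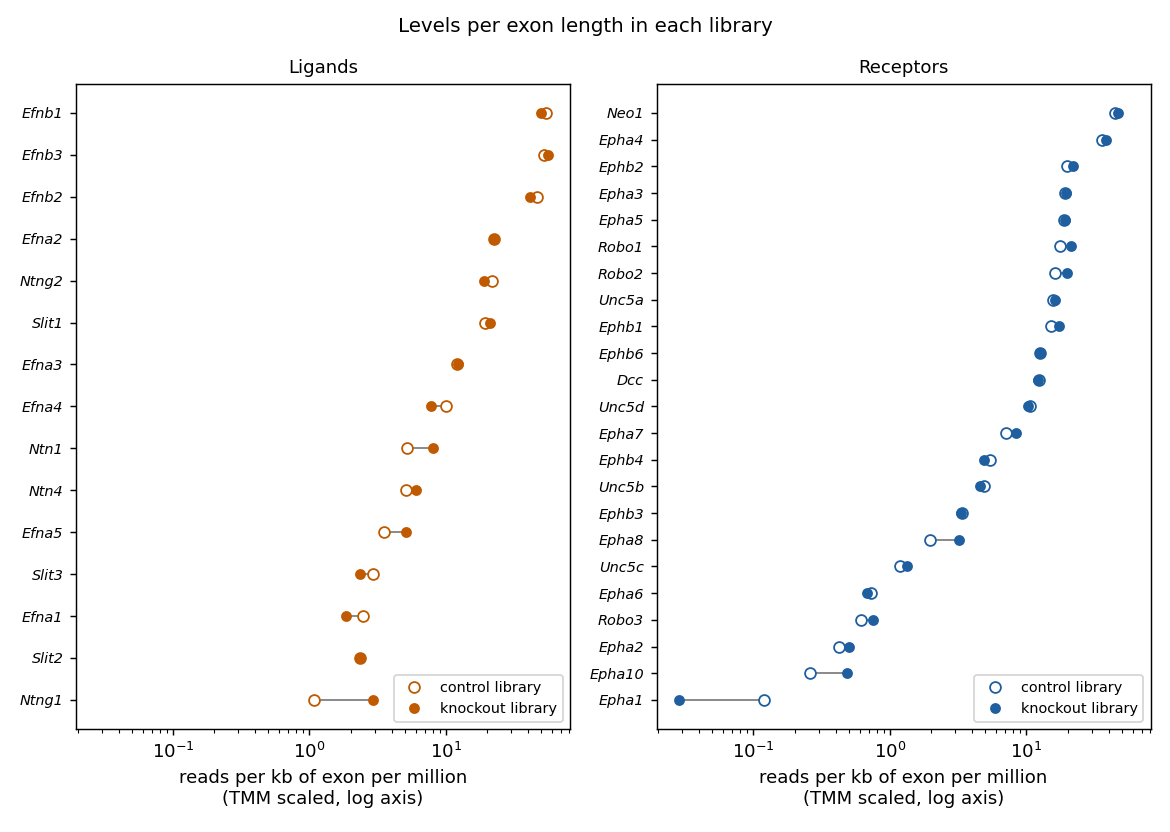
Level of each of the 38 members in RPKM, CPM per kilobase of exon (horizontal log axis, TMM scaled) in the control library (open) and the knockout library (filled), ligands on the left and receptors on the right. Pairs of points lie close together except for low genes such as Ntng1 (1.07 and 2.92) and Epha8 (1.95 and 3.19). The widest gap, towards a lower knockout value, is that of Epha1 (0.119 and 0.0285), on only 4 and 1 reads.

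The balance of ligand to receptor differed between systems more than between genotypes. Summed ephrin-B level was 2.71 times that of EphB in the control library and 2.44 times in the knockout. For ephrin-A and EphA the ratio was below 1, at 0.599 and 0.544. Slit level was 0.71 times that of Robo in the control library and 0.615 times in the knockout, beside the higher Robo1 and Robo2 values. Secreted netrins had the lowest ratio to their receptors, 0.114 and 0.155, and this was the single system where it was higher in the knockout library. The ratios rest on annotated exon lengths and on 1 library per genotype, and no error was computed for them.

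**Figure D4:**
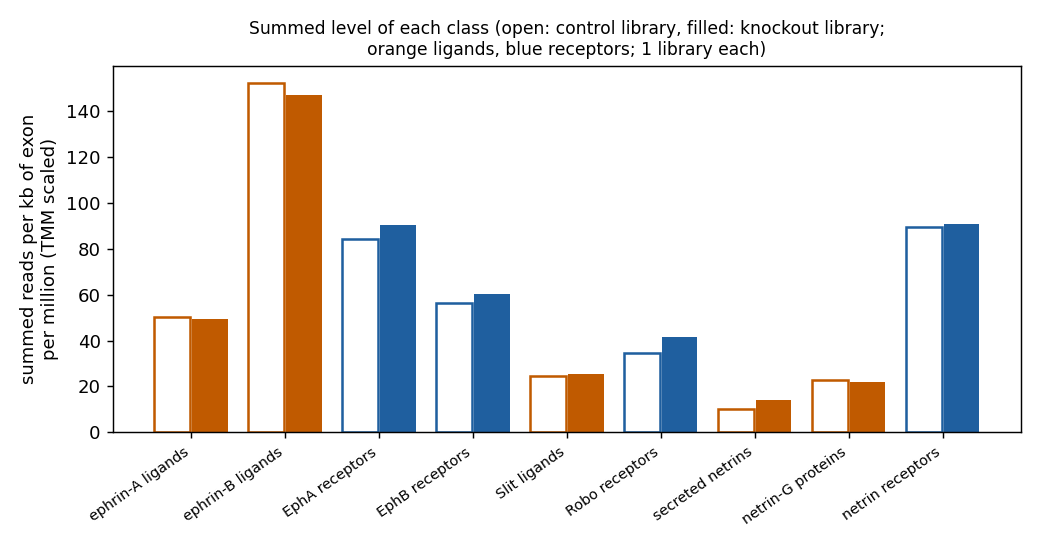
Summed level of each class in RPKM, CPM per kilobase of exon (vertical axis from 0, TMM scaled), with open bars for the control and filled bars for the knockout, ligands in orange and receptors in blue, 1 library each. Robo receptors (34.5 and 41.6) and secreted netrins (10.2 and 14.1) show the widest relative gaps.

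Genes that act with these ligands and receptors were described from 3 lists. Of 65 measured effectors and co-receptors, 2 were at least 1.5-fold higher and 1 lower, beside 3.52% and 5.43% of all measured genes, and their median log2 ratio was 0.05. Beyond counting error, 22 (33.8%) were higher and 5 (7.69%) lower, beside 12.5% and 9.3%, at a median of 2213 reads, well above that of all measured genes. Among 27 measured Eph effectors the higher pair was Vav3, an exchange factor gene, with 44 and 75 reads, 0.71 (0.16 to 1.28), and Ngef, which encodes ephexin-1, an exchange factor that binds EphA4, with 112 and 182 reads, 0.64 (0.30 to 0.997). Chn2, a Rac-inactivating chimaerin gene, was at 0.38 (0.17 to 0.60). On the lower side, Pick1 and Sipa1l1, genes of PDZ proteins, were at -0.18 (-0.37 to 0.0079) and -0.14 (-0.26 to -0.01), and Tiam2 was at -0.11 (-0.18 to -0.04). The Eph effector list as a whole was level, with a median of 0.02.

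The 16 measured Slit-Robo effectors had a median log2 ratio of 0.09, with 13 above 0. Beyond counting error, 7 were higher and 1 lower, beside 12.5% and 9.3% of all measured genes. Their median of 3506.5 reads over both libraries, against 505 for all measured genes, lets smaller ratios pass. Srgap1, which encodes a GTPase-activating protein that binds Robo1, had 1592 and 2013 reads, 0.28 (0.19 to 0.38), the highest ratio of this list. Its paralogs Srgap2 and Srgap3 were at 0.08 (-0.0070 to 0.17) and 0.08 (0.02 to 0.14). Gpc1, a heparan sulphate carrier gene that binds Slit, was at 0.18 (0.09 to 0.27), and Cap2, a cyclase-associated protein gene of actin turnover, was at 0.18 (-0.08 to 0.45). Robo4, the endothelial member of the receptor family, went the other way with 88 and 60 reads, -0.60 (-1.11 to -0.12). Vasp and Cap1, actin regulators, were at -0.02 (-0.23 to 0.18) and -0.0023 (-0.10 to 0.10).

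The 22 measured netrin effectors and co-receptors had a median of 0.12, with 0 at least 1.5-fold apart. Beyond counting error, 11 were higher and 2 lower, beside 12.5% and 9.3% of all measured genes. This list too was deeply read, at a median of 2292.5 reads against 505. Trim9, a ubiquitin ligase gene of netrin-dependent branching, was at 0.37 (0.22 to 0.52). Dscam, a netrin co-receptor gene, had 702 and 910 reads, 0.32 (0.17 to 0.46), and Rgma, which encodes a neogenin ligand, had 1277 and 1637 reads, 0.30 (0.20 to 0.41). Dock1, an exchange factor gene downstream of Dcc, was lower at -0.28 (-0.49 to -0.06). Draxin, a gene of a secreted Dcc ligand, was at -0.11 (-0.19 to -0.03), and Flrt1, which encodes a relative of the Unc5 ligands, at -0.17 (-0.41 to 0.07).

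Exons of 8 of the 38 members overlap those of another listed gene, and the counting strand was not stated in the labels. The overlap most relevant to a value above is that of Ntng2 with 6530402F18Rik on the same strand, over 558 bases or 14.0% of the annotated Ntng2 exons; that gene had 318 and 317 reads. Epha1 overlaps Zyx over 236 bases on the opposite strand. Ntng1, Ntn1 and Epha8 overlap no listed gene, and the 79 bases that Epha10 shares with 1700125G02Rik belong to a gene with 1 read in each library.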

How the data were processed

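RNA was sequenced from 1 control and 1 H2A.Z conditional knockout sample. The authors deposited 1 table; per the file headers it gives whole read counts per gene. Per the submitters' processing notes, Bowtie2 2.2.3, TopHat2 2.0.12, HTSeq 0.6.0 and build mm9 were used, with no roles given. All 38 member positions in the table overlap the same gene in GENCODE M21 (GRCm38) and 29 are identical, so coordinates are printed as those of the table and GRCm38. The authors' CPM columns, their deposited ratio (fold of control over knockout), the log2 of that ratio and their p-values and adjusted p-values come from steps not given in the sources used here. Apart from the fold and significance mark of Ntng1, and the remark on what that mark follows, they were not used.

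Symbols were matched to 19616 of 19720 identifiers. Counts were scaled over the whole table by TMM in edgeR 4.0.16 (R 4.3.3); log2 ratios used a prior of 0.5 read, a minimum of 20 reads in the sum of the libraries, and a limit of 1.5-fold. Exon lengths are unions of GENCODE M21 exons. Intervals were computed with Python 3.11.15 and scipy 1.17.1 and checked on simulated counts. These were drawn with counting error alone, so the check does not cover spread between embryos. With 1 sample per genotype no p-value was computed. Alternatives were scaling by library total and by DESeq2 1.42.0 size factors, a prior of 5 reads, no minimum or 100 reads, netrin-G proteins left out, and a difference beyond counting error.

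The members, the lists and the limits were chosen with earlier results of these data known. All members are named, with up to 3 pathway genes furthest from 0 on each side of each list, and H2afz. The rule allowed up to 2 genes of most reads per marker list, and of these Tcf7l2 and Lhx9 are named. Barhl2, the marker genes at 0 reads, Srgap2, Srgap3, Zyx, 6530402F18Rik and 1700125G02Rik were named after their values were seen.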

Additional observations from a re-analysis of the deposited data

How the results depend on the processing

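Under the alternatives the 4 members at least 1.5-fold higher numbered 4 with scaling by library total, with DESeq2 size factors, with a prior of 5 reads and with no read minimum. They numbered 3 with a minimum of 100 reads, which leaves out Epha10, and 3 with the demand of a difference beyond counting error. The count at least 1.5-fold lower was 0 throughout except with no read minimum, where it was 1, Epha1 with 4 and 1 reads. The median log2 ratio of receptors was 0.0711, and 0.0362 with scaling by library total, which lowers every log2 ratio by about the same amount; under the other settings it lay between 0.0504 and 0.0945. The ligand median lay between -0.0358 and 0.0223 and changed sign. All 38 member ratios stayed inside their own counting intervals under both other scalings and the larger prior. For the scalings this is no separate check. They shift all log2 ratios by -0.035 (library totals) or 0.023 (DESeq2 size factors), which is small beside these intervals. Calls beyond counting error moved for a few members near the limit: with library totals Epha4 lost its call and Efnb1 gained a lower one, and with DESeq2 size factors Efna4 lost its call while Efnb3, Epha10, Neo1 and Slit1 gained higher ones, making 14 higher and 2 lower. No paired analysis was possible because each genotype has 1 sample. Depth limits Epha1, Epha2, Epha6, Epha10, Robo3 and Efna1 most, and with 1 library per genotype the spread between embryos is not known for any gene.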
